A study of Mus musculus with 3 samples.

Results

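The binding of RXRα and RARα was examined at 10 mouse apolipoprotein genes, namely Apoa1, Apoa2, Apoa4, Apoa5, Apob, Apoc1, Apoc3, Apoe, Apoh and Apom, out of 22367 protein-coding genes of the GENCODE annotation of the NCBI37/mm9 genome. The genes were listed by name, with earlier results of these data known. Each gene was described by everything that lay over its body or within 10 kb of its start, the most upstream annotated end. The Apoa1-Apoc3-Apoa4-Apoa5 cluster and the Apoe-Apoc1 cluster were each also taken as a whole, from the first to the last base of their genes' windows.
The 3 libraries came from the liver of wild type male C57BL/6 mice aged 3 months, with no treatment given in the labels. They were chromatin precipitated with an RXRα antibody, input chromatin, and chromatin precipitated with an RARα antibody. There was 1 library per antibody, and the labels do not state how many mice went into each, so nothing below has a replicate check and no test was made. For RXRα and input the values are a signal in reads per bin of 32 bp, which comes to 9999939 and 9999292 reads. For RARα they are 143280 listed peaks, each with a score of 5 to 382. The paper reports more uniquely mapped reads for RXRα than this signal holds, and still more for RARα, so the antibodies differed in depth.

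Apolipoproteins are the protein part of the particles that carry lipids in plasma, and most of them are secreted by hepatocytes. APOB is the structural protein of very low and low density lipoproteins. APOA1 and APOA2 are the main proteins of high density lipoprotein, and APOE is a ligand of hepatic lipoprotein receptors. RARα binds all-trans retinoic acid and RXRα binds 9-cis retinoic acid. They form heterodimers on direct repeats of a short half-site, and RXRα also pairs with other receptors such as PPARα, LXR and FXR, so that an RXRα site need not be a site of RARα.

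A RARα peak is called here only if its score is greater than 20, and "listed peak" means a peak of any score. An RXRα region is a stretch where the RXRα signal reached at least 20 times input, and its ratio is the highest such value in it. Where a bin had less input than the mean of the genome, 0.603, the ratio was taken to that mean, so the highest ratio and the highest signal can lie in different bins. All 10 genes had a RARα peak in their window, against 58.2% of all protein-coding genes, and all 10 had an RXRα region, against 48% of all genes. Within 1 kb of the start the counts were 9 of 10 for RARα (41.5% of all genes) and 8 of 10 for RXRα (21.9%). The gene without a RARα peak there was Apom, and those without an RXRα region were Apoa4 and Apoh. For Apoh this start is its upstream end, 574 bp from the start of Prkca. A further start of Apoh, downstream, had 2 RXRα regions within 1 kb. RARα peaks were counted as co-localized where they shared at least 25% of the narrower of peak and RXRα region. Every gene but Apom had such a peak in its window (9 of 10, against 27.4% of all genes). Within 1 kb of the start this held for 7 of 10 genes, against 16.4%. Within 10 kb of the start and without the gene bodies, 9 genes had an RXRα region and 8 a co-localized peak. This left out Apoh, whose 6 RXRα regions lay farther from its start. The shares of all genes were not computed for this window. Windows of clustered genes overlap, so these counts are not independent of each other.

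The level of RXRα at the gene starts was compared as the mean signal within 1 kb of the start, divided by the mean input there or, if larger, by the mean input of the genome. The median of this enrichment was 5.45 over the 10 genes, 1.36 over all genes and 8.46 over 8 hepatocyte marker genes. Apoc1, which encodes a small protein of several lipoprotein classes, was highest with 10.04 (95% counting interval 6.92 to 14.8, from 319 RXRα and 32 input reads). Apoa2 followed with 9.17 (6.06 to 14.7) and Apoa5, whose product raises the clearance of plasma triglycerides, with 7.46 (5.20 to 10.8). Apoc3, an inhibitor of that clearance, gave 5.91 (4.09 to 9.08), and Apoa1 gave 5.77 (3.71 to 9.68). Apoh, which encodes a phospholipid-binding plasma glycoprotein, gave 5.13 (2.47 to 11.9) at its upstream end beside Prkca, and Apob gave 3.99 (2.62 to 6.09).
The lower end held Apoa4 with 3.58 (2.25 to 6.12), Apom, a carrier of sphingosine-1-phosphate on lipoproteins, with 3.52 (2.13 to 6.30), and Apoe with 2.74 (1.94 to 3.97). The interval of every gene overlapped that of its neighbour in this order. Apoe lay below Apoc1, Apoa2, Apoa5 and Apoc3 without overlap of the intervals, and Apoc1 lay above Apob, Apoa4, Apom and Apoe. The order also depended on the window, since within 500 bp of the start Apoc1 fell to 4.21 while Apoc3 and Apoa1 rose to 10.9 and 10.2. The RXRα signal of Apoe, 9.70 reads per bin, was close to the 10.3 of Apoa1, while its input of 3.55 was higher than at 99.9% of all gene starts, compared to 1.78 at Apoa1. The median input at the 10 starts was 2.12, against 0.778 for all genes, and the exception was Apoh with 0.703, below that of all genes. Its part in the RARα scores was not tested.
The RARα scores gave another order. The highest peak within 1 kb of the start scored 212 at Apoa1, 182 at Apob, 152 at Apoa5, 148 at Apoa2 and 142 at Apoe. Apoc3 had 83, Apoc1 79, Apoh 59 and Apoa4 23, and the listed peak at Apom scored 19, just under the minimum. The median of 112.5 compares to 10 for all genes. Within 1 kb Apoc1 thus had the higher RXRα enrichment and Apoe the higher RARα score, while within 500 bp the enrichments of Apoc1 and Apoe were 4.21 and 3.36.

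**Figure D1:**
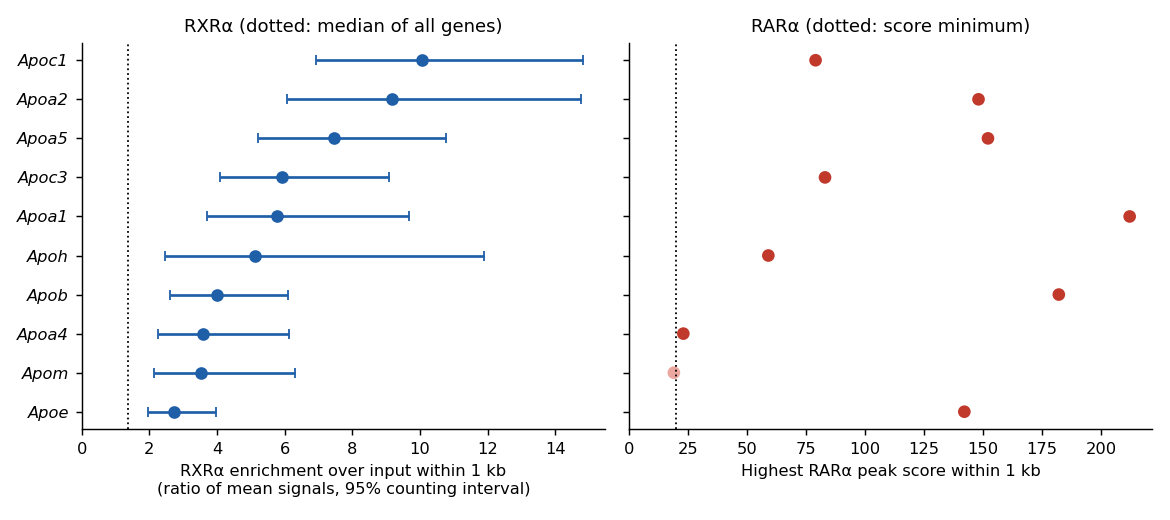
RXRα and RARα at the 10 gene starts. Left, RXRα enrichment over input within 1 kb of the start with its 95% counting interval, from 2.74 at Apoe to 10.04 at Apoc1, and the median of all genes (1.36) as a dotted line. Right, the highest RARα peak score in the same window, from 19 at Apom (pale, under the minimum of 20) to 212 at Apoa1.

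The Apoa1-Apoc3-Apoa4-Apoa5 cluster spans 60.1 kb (chr9:46026663-46086716). It contained 21 RARα peaks of 50 listed, 21 RXRα regions, and 10 RARα peaks that co-localized with a region. This was 3.50 RXRα regions per 10 kb, against 0.159 in the genome. When the genome was cut into 44219 tiles of the same length, 0.0136% of them held as many RXRα regions and 0.133% as many RARα peaks. Listed RARα peaks covered 37.0% of the cluster, compared to 1.88% of the genome.
The RARα peaks were not spread evenly over it. A block ran from the start of Apoa1 (chr9:46036663-46038549, plus strand) to the start of Apoc3 (chr9:46041016-46043719, minus strand), which are transcribed towards each other. Listed peaks covered 98.6% of the Apoa1 body, 99.6% of the gap between the genes and 94.4% of the Apoc3 body. Its peaks scored 212 over the Apoa1 start, 105 and 134 over the Apoa1 body, 146 over the gap between the genes and 83 at the Apoc3 start. The other listed peaks of the block were lower, with 30 in the gap and 12 to 30 over the Apoc3 body, some of them under the minimum. The peak in the gap was 2081 bp wide and held an RXRα region of 704 bp with a ratio of 61.4. At the Apoa1 start the RARα peak had an RXRα enrichment of 14.9, and its RXRα region had a ratio of 39.997. The stretch of this region upstream of the Apoa1 start is shown first because it lies under the highest RARα score of the group, followed by 75 bases either side of the RXRα bin with the highest ratio in the gap, both on the plus strand of NCBI37/mm9. Capitals mark a match to the forkhead-type motif TGTTTAC on the minus strand. In the printed stretches such motifs are marked only within windows of 201 bp around the RXRα bin of the highest ratio or a RARα summit. The first stretch lies outside these windows, so its lack of capitals does not mean that no match occurs.
Apoa1 start, chr9:46036577-46036662: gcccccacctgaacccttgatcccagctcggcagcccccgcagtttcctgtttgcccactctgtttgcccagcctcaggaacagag
Apoa1-Apoc3 gap, chr9:46038885-46039035: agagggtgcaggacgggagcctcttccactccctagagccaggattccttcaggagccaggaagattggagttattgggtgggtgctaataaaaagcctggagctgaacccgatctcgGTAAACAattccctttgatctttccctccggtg
By signal, the highest RXRα bin of the cluster, with 157 reads, lay at the Apoa5 start, under a RARα peak of score 152. The highest ratio, 97.9, was elsewhere, in a region of 256 bp that began just upstream of Apoc3. It came from a bin 233 bp before the start with 59 RXRα reads and no input read, so that the mean input was the divisor. The listed RARα peak over this region had a score of only 16. Upstream of Apoa1, between 1287 and 5383 bp from the start, there were 4 RXRα regions with ratios of 53.1 to 65.0, and the listed RARα peaks over them scored 7 to 18, all at or under the minimum. A bin 3143 bp upstream of Apoa1 had an RXRα signal of 77 but an input of 6, so that its ratio of 12.8 made no region.
Apoa4 (chr9:46048779-46051542, plus strand), a lipoprotein gene of gut and liver, had the lowest RXRα enrichment and the lowest RARα score at the start among the 4 genes. Its start carried a RARα peak of score 23 without an RXRα region within 1 kb, and its nearest region, with a ratio of 34.8, was 1595 bp upstream and had no listed RARα peak over it. The region upstream of Apoc3 and the region upstream of Apoa4 are given on the plus strand. In them capitals mark a match with 1 mismatch to a direct repeat spaced by 1 base (DR1) and by 2 bases (DR2), respectively.
Apoc3 upstream, chr9:46043745-46044000: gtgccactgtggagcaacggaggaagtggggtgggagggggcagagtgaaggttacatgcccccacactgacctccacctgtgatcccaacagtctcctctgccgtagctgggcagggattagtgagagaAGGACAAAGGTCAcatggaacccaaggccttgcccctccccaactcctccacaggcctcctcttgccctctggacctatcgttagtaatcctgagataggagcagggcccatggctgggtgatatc
Apoa4 upstream, chr9:46047105-46047232: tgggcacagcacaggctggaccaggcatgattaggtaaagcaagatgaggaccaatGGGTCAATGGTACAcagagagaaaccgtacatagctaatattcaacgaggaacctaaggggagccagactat
The gap of 25.2 kb between Apoa4 and Apoa5 held 7 RXRα regions. Of these, 6 lay between 7.26 and 12.1 kb upstream of Apoa5, with ratios of 29.0 to 69.7, and formed a pair of groups. The 3 farther from Apoa5 lay under RARα peaks of scores 56 and 41. The 3 nearer ones, with ratios of 69.7, 38.2 and 64.0, were over no listed RARα peak. Apoa5 itself (chr9:46076716-46080002, plus strand) had a RARα peak of score 152 over its start with an RXRα enrichment of 15.03 and RXRα regions at 188 bp upstream (ratio 24.7) and 132 bp downstream (33.2). RARα peaks of 60, 49 and 88 followed over its body, with RXRα enrichments of 2.01 to 2.78. Beyond its end, peaks of 75, 66 and 73 ran into Zfp259 and co-localized with RXRα regions. The bin with the highest RXRα signal near Apoa5, 157 reads at 124 bp upstream, had an input of 8 and a ratio of 19.6, just under the threshold.

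**Figure D2:**
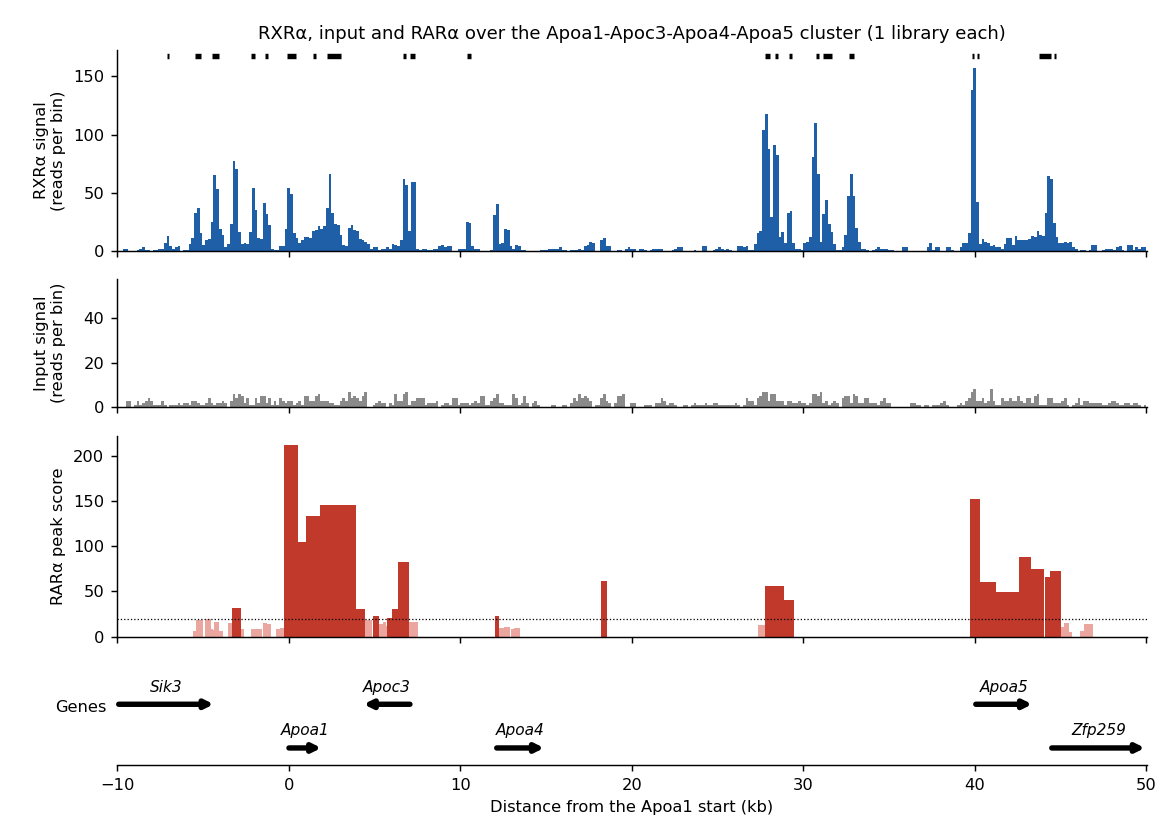
Signal over the Apoa1-Apoc3-Apoa4-Apoa5 cluster by distance from the Apoa1 start in kb. From top to bottom, RXRα and input signal (highest bin per 160 bp, reads per bin, input axis enlarged) with black bars for the 21 RXRα regions, listed RARα peaks by score (dark if above the dotted minimum of 20, pale if not), and the genes as arrows in the direction of transcription, with Sik3 and Zfp259 cut at the edges. RARα forms a block from Apoa1 to Apoc3 and another over Apoa5, while RXRα also rises upstream of Apoa1 and in the gap between Apoa4 and Apoa5.

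The Apoe-Apoc1 cluster spans 26.5 kb (chr7:20268007-20294515) and held 16 RARα peaks of 40 listed, 11 RXRα regions and 8 co-localized RARα peaks. The RXRα regions came to 4.15 per 10 kb. Of 100161 genome tiles of this length, 0.0339% had as many RXRα regions and 0.0779% as many RARα peaks. Listed RARα peaks covered 53.6% of it. Both genes lie on the minus strand, with Apoe (chr7:20281458-20284515) upstream of Apoc1 (chr7:20274833-20278007).
At the Apoe start the RARα peak scored 142, and the RXRα region within it, 141 bp upstream, was among the weakest of the group with a ratio of 21.0. A second RARα peak, of score 94, lay 2065 bp upstream of Apoe and had the highest RXRα enrichment of all RARα peaks in the 10 windows, 28.0, over a region with a ratio of 72.5. From the Apoe start to the Apoc1 body the RARα peaks were low, with scores of 22 to 47, until the peak of 79 at the Apoc1 start.
In the Apoc1 window the ratios of the RXRα regions ran from 20.5 to 101.2, and the high ones described next lay under RARα scores of 17 to 43. The region with the highest ratio in any of the 10 windows, 101.2, lay 1753 bp upstream of Apoc1 in the gap between the genes. It was under a listed RARα peak of score 17, and its ratio came from a bin with 61 RXRα reads and no input read. A region of 544 bp in the Apoc1 gene, whose bin of the highest ratio at 935 bp downstream of the start was in an intron, had a ratio of 79.0 and lay under RARα peaks of 24 and 43. Downstream of Apoc1, 7047 bp from its start, a region with a ratio of 76.0 co-localized with a RARα peak of score 32. The Apoc1 body had an RXRα enrichment of 10.3 as a whole, against 2.27 for the Apoe body, although listed RARα peaks covered 82.2% of the former and 96.96% of the latter.
The Apoe upstream region, the region in the gap and the Apoc1 intron are printed on the plus strand of NCBI37/mm9, because they hold the highest RXRα enrichment at a RARα peak, the highest ratio, and a repeat match close to a RARα summit, respectively. Capitals mark a forkhead-type match in the first, and in the Apoc1 intron a match with 1 mismatch to a direct repeat spaced by 3 bases (DR3). Part of the same bases also matches, with 1 mismatch, an inverted repeat spaced by 1 base (IR1). No match was found in the searched window of the gap region, which has no capitals. It does hold agttcaaggtca, that is AGTTCA followed by AGGTCA with no base between, a spacing that was not searched. The DR3 match was centred 3 bases from the middle of the RXRα bin with the highest ratio and on the summit of the RARα peak with a score of 24. A copy that shared 14 of its 15 bases began 20 bases further on.
Apoe upstream, chr7:20286337-20286592: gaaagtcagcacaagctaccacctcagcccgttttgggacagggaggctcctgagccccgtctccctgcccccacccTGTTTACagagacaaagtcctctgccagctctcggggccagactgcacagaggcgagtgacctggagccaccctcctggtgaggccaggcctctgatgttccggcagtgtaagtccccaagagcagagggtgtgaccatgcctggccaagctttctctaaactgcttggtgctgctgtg
Apoc1-Apoe gap, chr7:20279649-20279904: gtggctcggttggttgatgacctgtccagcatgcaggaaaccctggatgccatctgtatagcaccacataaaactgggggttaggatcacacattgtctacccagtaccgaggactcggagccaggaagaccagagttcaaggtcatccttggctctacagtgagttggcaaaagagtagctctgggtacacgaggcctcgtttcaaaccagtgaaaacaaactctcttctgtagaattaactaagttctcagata
Apoc1 intron, chr7:20277017-20277127: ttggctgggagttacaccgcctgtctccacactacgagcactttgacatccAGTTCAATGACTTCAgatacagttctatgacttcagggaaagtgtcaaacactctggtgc

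**Figure D3:**
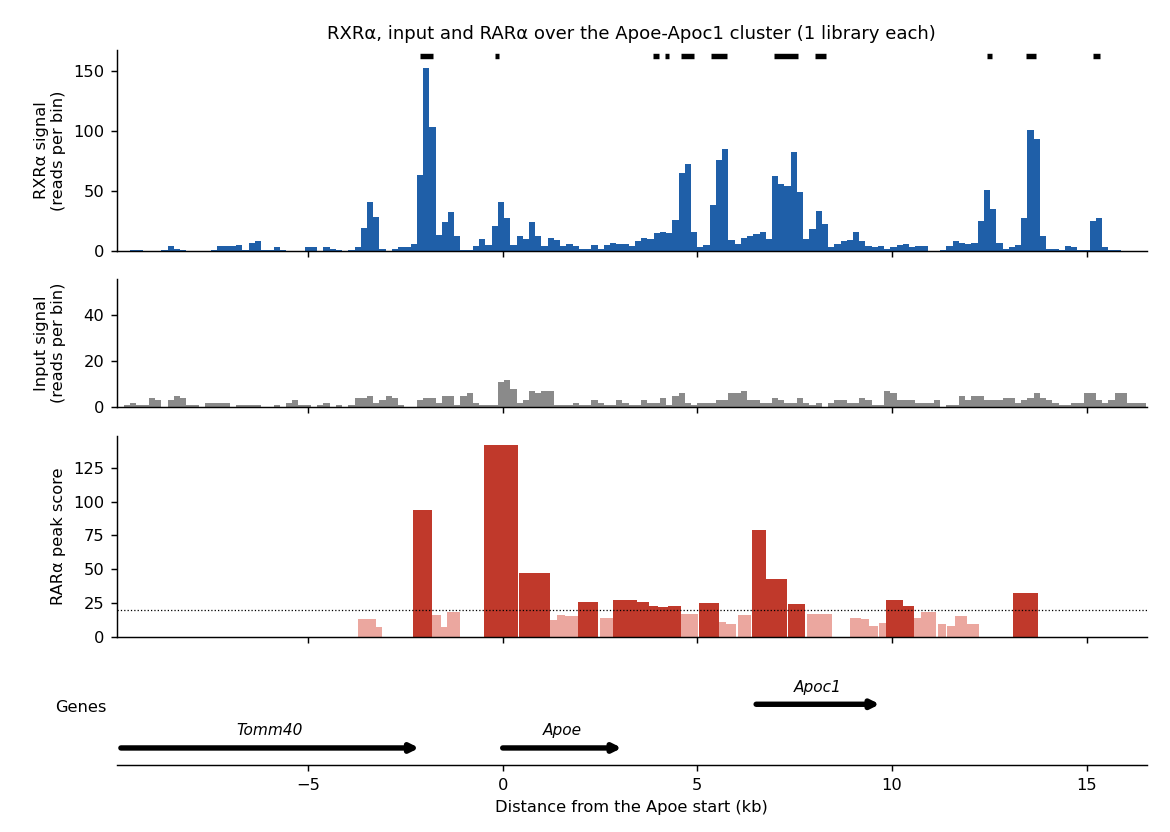
Signal over the Apoe-Apoc1 cluster by distance from the Apoe start in kb, drawn in the direction of transcription. Rows are as for the Apoa1 cluster, with black bars for the 11 RXRα regions and Tomm40 cut at the edge. The highest RARα score (142) is at the Apoe start, where input is also raised, and the higher RXRα signals stand upstream of Apoe and around Apoc1.

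Apoa2 (chr1:173155185-173156510, plus strand) had 4 RARα peaks and 6 RXRα regions in its window. The peak over its start scored 148, with an RXRα enrichment of 9.14 and a region with a ratio of 30.3 at 33 bp upstream. A pair of further regions lay at 705 and 961 bp upstream. The highest ratio of the window, 92.9, was in a region 4383 bp downstream of the start, beyond the end of the gene. This region lay 1455 bp from the nearest listed RARα peak. Its ratio came from a bin with 56 RXRα reads and no input read, against 91 and 3 in the region at the start. The RARα peak of score 64 at 4060 bp upstream lay in an intron of Tomm40l and was the only RARα summit of the group with a CTCF-like match, at 12 bp from the summit. Both stretches are shown, on the plus strand, with the forkhead-type match at the start and the CTCF-like match in the intron in capitals.
Apoa2 start, chr1:173155041-173155184: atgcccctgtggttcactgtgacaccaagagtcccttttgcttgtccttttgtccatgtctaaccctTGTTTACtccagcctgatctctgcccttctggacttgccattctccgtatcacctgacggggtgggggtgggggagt
Tomm40l intron, chr1:173151081-173151232: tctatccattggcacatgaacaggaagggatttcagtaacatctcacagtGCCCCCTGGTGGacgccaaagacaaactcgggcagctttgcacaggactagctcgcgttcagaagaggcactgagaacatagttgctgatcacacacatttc

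Apob (chr12:7984454-8023641, plus strand), the longest gene here after Apoh, was covered from end to end by listed RARα peaks. These covered 96.4% of its body, and peaks above the minimum 75.9%. Of 95 listed peaks with their summit in the body, 64 were above the minimum. Their scores lay between 8 and 182, and the median score was 26. The peak of 182 was at the start, 31 bp downstream, and the next highest scored 70. By annotation, 59 summits were in introns, 34 in coding exons and 2 in untranslated regions. When the body was cut into 5 parts of equal length, listed peaks covered between 94.6% and 97.1% of each part, while they covered 7.15% of the 10 kb upstream and 35.3% of the 10 kb downstream.
RXRα did not share this pattern. The body held 2 RXRα regions, one of ratio 46.5 at 10 bp from the start and the other of ratio 26.5 at 7018 bp, and 2 of the RARα peaks co-localized with them. The RXRα enrichment of the 5 parts was 2.16 in the first and 1.28, 1.46, 1.59 and 1.62 in the following ones. The highest RXRα bin of the window, 63 reads at 938 bp downstream of the start, had an input of 8 and a ratio of 7.87. Input over the body was 1.70 reads per bin, higher than over 98.4% of all gene bodies, and its part in the RARα cover was not tested. The 100 bases upstream of the start are shown with the TATAA, which began 31 bases before it, in capitals. They are followed by the 32 bases of the second region, at the right end, with the 70 bases to their left. The capitals there mark a match on the minus strand to the HNF4-type motif CAAAGTCCA, which lies outside the region but was the only one in the windows of 201 bp around the 45 RXRα regions of the group.
Apob upstream, chr12:7984354-7984453: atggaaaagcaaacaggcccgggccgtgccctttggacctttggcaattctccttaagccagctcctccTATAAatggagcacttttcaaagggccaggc
Apob intron, chr12:7991387-7991488: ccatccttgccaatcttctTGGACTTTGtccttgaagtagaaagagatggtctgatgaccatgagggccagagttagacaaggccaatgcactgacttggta

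**Figure D4:**
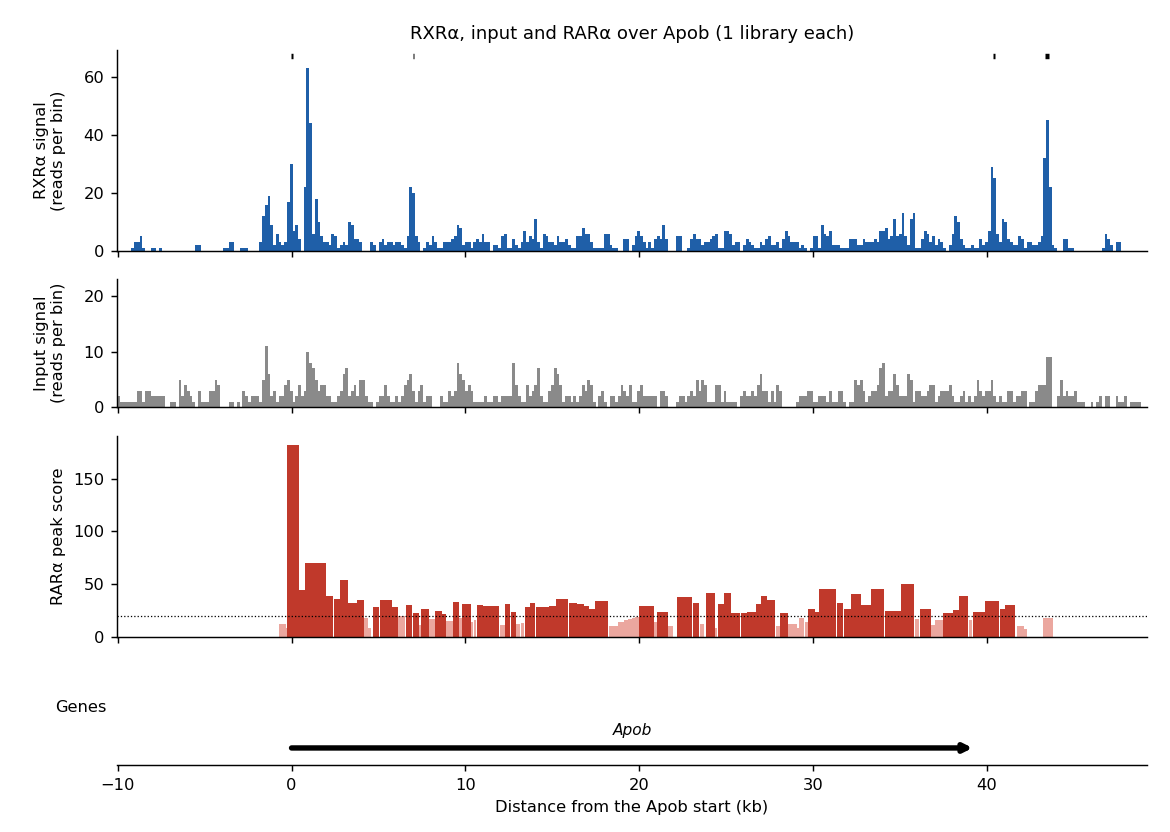
Signal over Apob and 10 kb either side, by distance from the start in kb, with rows as for the Apoa1 cluster. Listed RARα peaks tile the gene (96.4% of the body, 75.9% for those above the minimum), with the score of 182 at the start and 70 or less after it, and RXRα regions (black bars) are few.

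Apoh (chr11:108204668-108275710, plus strand) and Apom (chr17:35265942-35268995, minus strand) depended on what is taken as theirs. The upstream end of Apoh lies 574 bp from the start of Prkca on the other strand. The RARα peak of score 59 there had no RXRα region. Its summit lay where both genes overlap, in untranslated sequence of Apoh, Prkca or both. A further transcript of Apoh starts at 108256607, inside the annotated gene. There, a RARα peak of score 50 covered the start and co-localized with an RXRα region of ratio 71.4, and the RXRα enrichment within 1 kb was 5.36. The transcripts that start at 108242478 and 108242483 had no listed RARα peak and an RXRα enrichment of 0.132. The highest ratio of an RXRα region of Apoh, 84.6, came from a bin with 51 RXRα reads and no input read. This region was 42164 bp from the upstream end, in an intron, under a listed RARα peak of score 20. The stretch from the region of ratio 71.4 to the downstream start is shown, with a forkhead-type match in capitals.
Apoh downstream start, chr11:108256321-108256606: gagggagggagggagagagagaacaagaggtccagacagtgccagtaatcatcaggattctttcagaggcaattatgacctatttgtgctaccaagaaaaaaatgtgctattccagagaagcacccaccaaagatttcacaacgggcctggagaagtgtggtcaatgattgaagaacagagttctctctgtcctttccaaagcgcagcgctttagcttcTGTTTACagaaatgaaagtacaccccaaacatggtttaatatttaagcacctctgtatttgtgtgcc
At Apom the RXRα region 211 bp downstream of the start had a ratio of 34.0, under the listed RARα peak of score 19. The 4 RARα peaks of its window, with scores of 30 to 45, had their summits in or beside Bag6, D17H6S53E and Gm20522, and no RARα peak above the minimum touched the Apom body. The Apom region held 2 overlapping DR1 matches and a DR2 match, each with 1 mismatch, on the minus strand. The bases they cover, chr17:35268766-35268786, are given on the plus strand.
Apom start, chr17:35268766-35268786: CGACCCTTGACCCTTTAACCT

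The share of the gene body under RARα peaks set most of these genes apart from protein-coding genes as a whole, though not from hepatocyte marker genes. For listed peaks it was 98.9% for Apoa5, 98.6% for Apoa1, 97.96% for Apoa2, 96.96% for Apoe, 96.4% for Apob and 94.4% for Apoc3. Thus 6 of 10 were covered over at least 90%, which held for 0.751% of all protein-coding genes, and the median of all genes was 1.84%. Apoc1 followed with 82.2%, Apoa4 with 45.0%, Apom with 31.3% and Apoh with 9.49%. Among 8 hepatocyte marker genes 6 reached 90% as well, and the median of the 8 was 96.7%, against 95.4% for the 10 genes. Short genes reach such a share more easily, and the median length of the 168 genes at or above 90% was 1531.5 bp, compared to 15427 bp for all genes. Apob was 1 of 5 such genes among the 6005 genes as long as Apob or longer. With peaks above the minimum only, Apoa5 and Apoa1 were still at 98.9% and 98.6% and Apob at 75.9%, while Apoe came to 63.5%, Apoc3 to 62.9%, Apoc1 to 38.7%, Apoa2 to 25.4%, Apoa4 to 5.54%, Apoh to 2.77% and Apom to 0%.

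**Figure D5:**
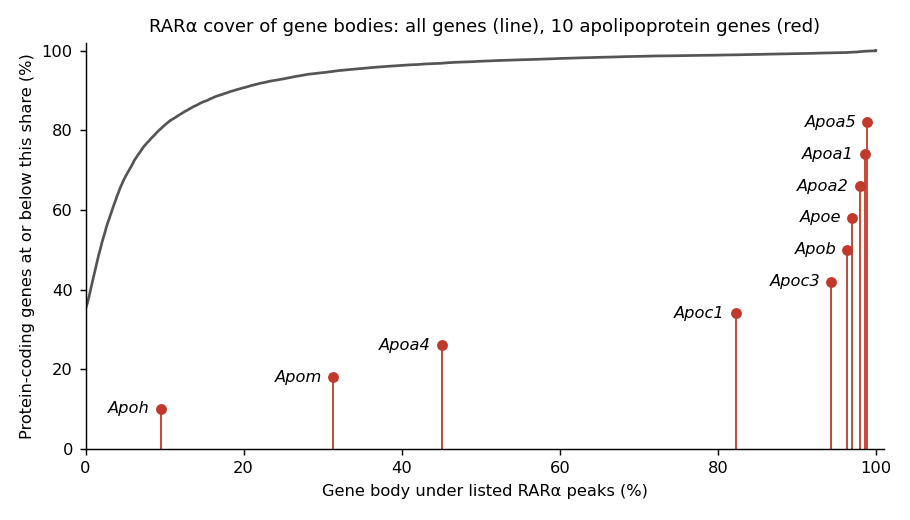
Share of the gene body under listed RARα peaks, in percent. The line is the cumulative share of all protein-coding genes, and the red marks are the 10 genes, with stem heights that serve only to separate the names. Of the 10 genes 6 lie at or above 90%, and Apoh, at 9.49%, is the lowest.

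Over all 10 windows there were 111 different RARα peaks, of which 22 (19.8%, Wilson 95% interval 13.5 to 28.2%) co-localized with an RXRα region. This compares to 32.2% of all RARα peaks. The share rested on Apob, which had 65 of the peaks. Outside its window it was 20 of 46 (43.5%). Seen from RXRα, 21 of the 45 regions (46.7%) lay over a RARα peak, against 25.4% of all 42117 regions, and 11 more lay only over listed peaks of lower score. The RXRα regions themselves had a median ratio of 36.5, against 34.8 for all regions. Across the 111 RARα peaks, which share libraries and often abut, the Spearman correlation of score and RXRα enrichment was 0.275, compared to -0.0101 over all RARα peaks.
The highest RARα summit near the start was downstream of it in 7 of 9 genes, with a median of 60 bp, and among all genes in 60.4%, with a median of 31 bp. The RXRα bin of the highest ratio near the start lay upstream in 3 of 8 genes, with a median offset of 65.5 bp downstream, and upstream in 55.5% of all genes, with a median offset of -32 bp.

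Sequence was searched in windows of 201 bp around the RXRα bin with the highest ratio in a region, the RARα summit or the gene start, on both strands. Direct repeats were pairs of AGGTCA or GGGTCA or AGTTCA or GGTTCA in the same direction with 1 to 5 bases between them (DR1 to DR5). None of the 45 RXRα windows held an exact repeat, against 2.98% of all RXRα windows. With up to 1 mismatch 9 of 45 (20%) had a repeat, against 23.4%, and 6 of them (13.3%) had a DR1, against 9.24%. The forkhead-type motif was in 4 of the 45 (8.89%, against 5.86%). At the RARα summits, repeats with up to 1 mismatch were found in 9 of 111 (8.11%, against 8.496%), and the CTCF-like motif in 1 of 111, against 8.70% of all RARα summits. Of the 10 gene starts, 3 (30%) had a repeat with up to 1 mismatch, against 4.90% of all genes, and 2 (20%) had a DR2, against 1.05%. An exact repeat was found at 0 of them, against 0.286%. The inverted repeat IR1, with up to 1 mismatch, was in 2 of 45 RXRα windows (4.44%, against 3.49%) and 3 of 111 RARα windows (2.70%, against 0.856%). A match shows only that these letters occur, and matches to different repeats can overlap.
The gene starts were poor in CpG. The observed over expected CpG within 500 bp of the start had a median of 0.240, against 0.549 for all genes, and was below that median at 9 of 10 genes, the exception being Apoh with 0.745 at the start beside Prkca. TATAA upstream of a transcript start was found for Apob, Apoc3 and Apoe, against 6.60% of all genes.

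For 16 other apolipoprotein genes, 10 had a RARα peak in their window, a share near the 58.2% of all genes. An RXRα region was found for 14 of them (48% of all genes) and a co-localized peak for 7 (27.4%). Within 1 kb of the start the counts were 8, 10 and 7 of 16, against 41.5%, 21.9% and 16.4% of all genes. The median RXRα enrichment at their starts was 5.57, against 1.36 over all genes and 5.45 over the 10 genes described above. One of them, Apof, a plasma inhibitor of lipid transfer, was covered over at least 90% of its body (90.1%), with a RARα score of 160 and an RXRα ratio of 160. Clu, which encodes the apolipoprotein also named clusterin, reached a RARα score of 247. Apol6 had neither a RARα peak nor an RXRα region. Apoc2 and Apoc4 lie next to Apoc1, and the highest ratio of an RXRα region in their windows was 154. Apol9a and Apol9b had RXRα regions, with top ratios of 56.0 and 46.5, and no listed RARα peak.
Of 21 genes of lipoprotein assembly, remodelling and uptake, 18 had a RARα peak, 19 an RXRα region and 15 a co-localized peak in their window, against 58.2%, 48% and 27.4% of all genes. These windows include the gene bodies, which are long for several of these genes. Within 1 kb of the start 14, 9 and 7 of them did, against 41.5%, 21.9% and 16.4%, and the median enrichment there was 3.42. Lrp1, an endocytic receptor for remnant particles, had the highest RXRα ratio, 287. P4hb, a subunit of the complex that loads lipid onto APOB, had the highest RARα score, 214. Mttp, the other subunit, had a score of 61 and a ratio of 79.0. Vldlr, a receptor that liver expresses little of, had neither.
The labelled tissue was checked with marker genes of liver cells. All 8 of the hepatocyte markers found, such as Alb and Fgb, had a RARα peak, an RXRα region and a co-localized peak. None of the 4 Kupffer cell markers found had a RARα peak or an RXRα region. Of the 4 endothelial markers 4 had a RARα peak and 3 an RXRα region, of the 4 stellate cell markers 2 and 1, and of the 4 cholangiocyte markers 1 and 1, with 2, 0 and 0 having a co-localized peak. The shares of all genes were 58.2%, 48% and 27.4%, and these windows include the gene bodies. Within 1 kb of the start, 7 of the 8 hepatocyte markers and 0 of the others had an RXRα region (21.9% of all genes). A RARα peak was there for 6 hepatocyte, 0 Kupffer cell, 3 endothelial, 1 stellate cell and 1 cholangiocyte markers (41.5%).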

How the data were processed

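ChIP-seq was made from mouse liver with 1 library each for RXRα, input and RARα. Per the labels, CASAVA 1.4 and Bowtie were used for all libraries and MACS for RARα. The methods name mm10 for the alignment, while the files name mm9, and no RARα peak (0) ran past a chromosome end of NCBI37/mm9, which was used here. The deposited RXRα and input files hold a signal, which is read coverage in 32 bp bins, with 5 bins per read. For RARα the authors deposited a score per peak, whose exact meaning the list does not state, and a false discovery rate in percent, which was not used as a filter.
RXRα and input were brought to a common mean per bin. This changed little, since the deposited signals already had means of 0.602653 and 0.602614. RXRα regions are bins at 20 times the larger of local and mean input or more, joined when at most 200 bp apart. At mean input this needs a signal of 12.1. Enrichment is mean RXRα over mean input, with the genome mean (0.603) as its floor. The score minimum and the distance of 10 kb follow the methods of the study, and the gene bodies were added here. Intervals are 95% Wilson intervals for shares and exact binomial ones for ratios of the reads in the deposited signal. They cover counting error only and treat reads or peaks as independent.
The members and gene lists were chosen with earlier results of these data known. The text names the 10 genes, neighbours of theirs, and list genes at the ends of the range. The list genes named were chosen after their values were seen, as were the alternatives with 1 mismatch, without Apob, and with the gene and 1 kb upstream only. Of the marker lists, Tf and Adgre1 were not found by symbol, and Adgre1 was entered under its older symbol Emr1. Calling, overlap and motif steps were tested on simulated data. Python 3.11.15 was used with matplotlib 3.10.9, scipy 1.17.1, pandas 2.3.3 and numpy 2.4.6.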

Additional observations from a re-analysis of the deposited data

How the results depend on the processing

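The number of genes with a RARα peak, an RXRα region or a co-localized peak stayed between 7 and 10 of 10 under every alternative. Of these alternatives, the share of all genes was computed only for the window of 1 kb. Of 62 alternative values of the counts and shares, 44 stayed within 1.5 times the reported count or within the interval of the reported value. This limit is wide for gene counts, as 7 lies within 1.5 times of 10. Some alternatives could hardly change a value. The tracks had nearly equal means without scaling, and input exceeded its floor at all 10 starts. With every listed RARα peak, the Apoa1-Apoc3-Apoa4-Apoa5 cluster had 50 peaks and the Apoe-Apoc1 cluster 40. With scores greater than 50 they had 13 and 3, and with abutting peaks merged 7 and 6. The RXRα regions of the Apoa1 cluster rose to 37 when only adjacent bins were joined, and those of the Apoe-Apoc1 cluster were 18 at 10 times input and 6 at 30 times. The share of RARα peaks that co-localized moved from 19.8% to 59.1% with scores greater than 50, 37.8% and 11.7% at 10 and 30 times input, 30.6% with the mean input only, 58.6% with abutting peaks merged and 43.5% without Apob. The RXRα enrichment pooled over the 10 starts was 5.76, and 6.86 within 500 bp. At single starts that window raised Apoa1 to 10.2 and Apoc3 to 10.9 and lowered Apoc1 to 4.21, and a window of 2 kb raised Apoe to 5.05, so the order of the genes depends on it. All gene bodies together were under RARα peaks for 32.1% of their length, and for 6.76% with scores greater than 50. Direct repeats in the RXRα windows went from 0 to 9 with 1 mismatch. No paired analysis was possible because each antibody had 1 library, and no library could be left out for the same reason.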

Other observations

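The 5 genes at least as long as Apob with at least 90% of their body under listed RARα peaks were Apob, Cps1 and Ass1, enzymes of the urea cycle, Acsl1, which activates long-chain fatty acids, and Lpin1, which makes diacylglycerol. Their covers were 96.4% for Apob, 97.5% for Cps1, 92.9% for Ass1, 96.6% for Acsl1 and 97.7% for Lpin1. Of the 8 hepatocyte markers found, 6 passed the same limit, among them Alb with 95.1%, Ahsg with 98.2% and Fgg with 98.7%. Serpina1a, at 9.66%, was the lowest of the 8.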
